A study of Homo sapiens with 19 samples.

Results

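The CYP2A and CYP2B genes are neighbouring cytochrome P450 genes on chromosome 19. The symbols CYP2A6, CYP2A7, CYP2A13 and CYP2B6 were taken by matching the Ensembl identifiers of the count table to gene symbols. They are 4 of 78894 genes in the table, and all 4 were among the 23121 genes that passed the filter on low counts. That filter was met through the control and siRNA libraries of batch 1 for the 3 CYP2A genes, which were close to 0 in batch 2. The nearby pseudogene CYP2B7P, a near copy of CYP2B6, is described beside them.

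RNA sequencing was done on HepaRG, a human hepatic line whose precursors can be differentiated into hepatocyte-like and biliary-like cells, in 19 libraries of 7 groups. All wells held differentiated cells, and the media were changed 24 h and 48 h after transfection, the second time to a serum-free medium. Batch 1 held a negative control siRNA (siNC), an siRNA against ADAR and an siRNA against ADARB1, each at 20 nM with 3 libraries. ADAR and ADARB1 are enzymes that edit adenosine to inosine in double-stranded RNA. Batch 2 held its own siNC libraries (n = 3), interferon alpha (IFNa) at 1000 U/mL (n = 2), BX795 at 1 µM (n = 3) and BX795 together with the ADAR siRNA (n = 2). BX795 inhibits kinases that include TBK1 and IKK epsilon, which relay signals from nucleic acid sensors to interferon genes. The sources used here do not give whether IFNa or BX795 was also combined with siNC in its own wells. As nothing states that replicates came from separate cultures, each p-value measures the spread between libraries, which may be technical.

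Total counts ranged from 42.7 to 77.1 M per library in batch 1 and from 13.1 to 34.7 M in batch 2. The targeted genes followed the labels: the ADAR level, as TMM-scaled counts for each M counts of a library (CPM), was 60.6 to 70.6 with the ADAR siRNA against 260 to 264 with siNC in batch 1. ADARB1 was 10.3 to 11.3 CPM with its siRNA against 31.4 to 33.5 CPM with siNC. ADAR was 52.5 and 55.8 CPM with BX795 and the ADAR siRNA, against 196 to 244 CPM in the batch 2 controls. Hepatocyte markers summed over 20 genes ranged from 89462 to 96165 CPM in the batch 1 controls and from 15584 to 18966 CPM in the batch 2 controls, with no marker at 0 in either.

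CYP2A6 is the liver's main oxidase of nicotine and of coumarin, and it also oxidises a number of other small molecules. CYP2A7 lies beside it and codes for a protein with no known enzyme activity, and CYP2A13 is best known from the airways, where it activates tobacco nitrosamines. CYP2B6 hydroxylates bupropion, efavirenz and cyclophosphamide. It is a textbook target of the drug-sensing nuclear receptors CAR (gene NR1I3) and PXR (gene NR1I2), which bind elements upstream of it, and hepatocyte expression of these enzymes also depends on factors such as HNF4A.

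The start of each gene shows how alike the CYP2A genes are and how CYP2B6 differs from them. The 250 bases before each start site, from the RefSeq promoter table for GRCh38.p14, are given 5′ to 3′ on the gene's own strand. They lie at chr19:40850448-40850697 (minus strand) for CYP2A6, chr19:40882232-40882481 (minus strand) for CYP2A7, chr19:41088201-41088450 (plus strand) for CYP2A13 and chr19:40991032-40991281 (plus strand) for CYP2B6. Capitals mark matches to motifs named for HNF4 (CAAAGTCCA), the TATA box (TATAAA), a nuclear receptor half-site (AGGTCA) and C/EBP factors (TTGCNNAA), on either strand.
CYP2A6: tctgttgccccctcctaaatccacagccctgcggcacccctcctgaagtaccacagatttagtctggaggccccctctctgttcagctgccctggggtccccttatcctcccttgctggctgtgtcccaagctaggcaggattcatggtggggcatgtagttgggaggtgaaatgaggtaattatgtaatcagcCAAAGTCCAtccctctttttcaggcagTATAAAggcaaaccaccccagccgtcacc
CYP2A7: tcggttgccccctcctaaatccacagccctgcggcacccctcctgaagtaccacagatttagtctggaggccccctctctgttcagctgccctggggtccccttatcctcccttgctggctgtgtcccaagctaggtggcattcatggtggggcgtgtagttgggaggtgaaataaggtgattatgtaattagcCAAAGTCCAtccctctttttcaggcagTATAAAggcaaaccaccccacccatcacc
CYP2A13: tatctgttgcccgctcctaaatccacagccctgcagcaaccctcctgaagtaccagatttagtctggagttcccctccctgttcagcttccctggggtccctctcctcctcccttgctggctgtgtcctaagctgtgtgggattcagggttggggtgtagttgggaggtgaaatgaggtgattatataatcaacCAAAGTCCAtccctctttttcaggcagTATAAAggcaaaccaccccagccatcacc
CYP2B6: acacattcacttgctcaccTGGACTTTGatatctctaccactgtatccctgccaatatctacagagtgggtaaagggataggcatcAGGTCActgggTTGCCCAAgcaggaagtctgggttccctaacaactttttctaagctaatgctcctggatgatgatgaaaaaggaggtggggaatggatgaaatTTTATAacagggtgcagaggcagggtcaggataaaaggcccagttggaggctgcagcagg

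CYP2A6 and CYP2A7 were identical at 96% of 250 aligned promoter bases, and each was identical to CYP2A13 at 91.5% of 247 aligned bases. The 3 CYP2A promoters each held 1 HNF4 match, 56 bases before the start site, and 1 TATA match, 29 bases before it. CYP2B6 also held 1 HNF4 match, but 231 bases before its start site and on the opposite strand, and its TATAAA match, 60 bases before the start site, was on the opposite strand too. Of 35116 promoters of this length, 0.325% held the HNF4 motif and 10.7% the TATA motif.

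Only CYP2B6 among the 4 genes held the half-site, 164 bases before its start site, and the C/EBP motif, 153 bases before it, which are in 12.1% and 9.05% of promoters. None of the 4 windows matched the searched letters for a CAR and PXR element (AGGTCA repeated in the same direction after any 4 bases), an HNF1 site (GTTAAT, any base, ATTAAC), a FOXA site (TGTTTAC) or an interferon-stimulated response element (GAAA, any 2 bases, GAAA). The letters of the half-site make up each repeat of the CAR and PXR element as searched, but CYP2B6 held only 1 copy. Only 0.0142% of promoters of this length held that element, and sequence beyond the 250 bases was not searched. Its absence from the windows therefore does not bear on elements farther upstream. These matches are a description of the letters in the windows, not of binding.

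**Figure D1:**
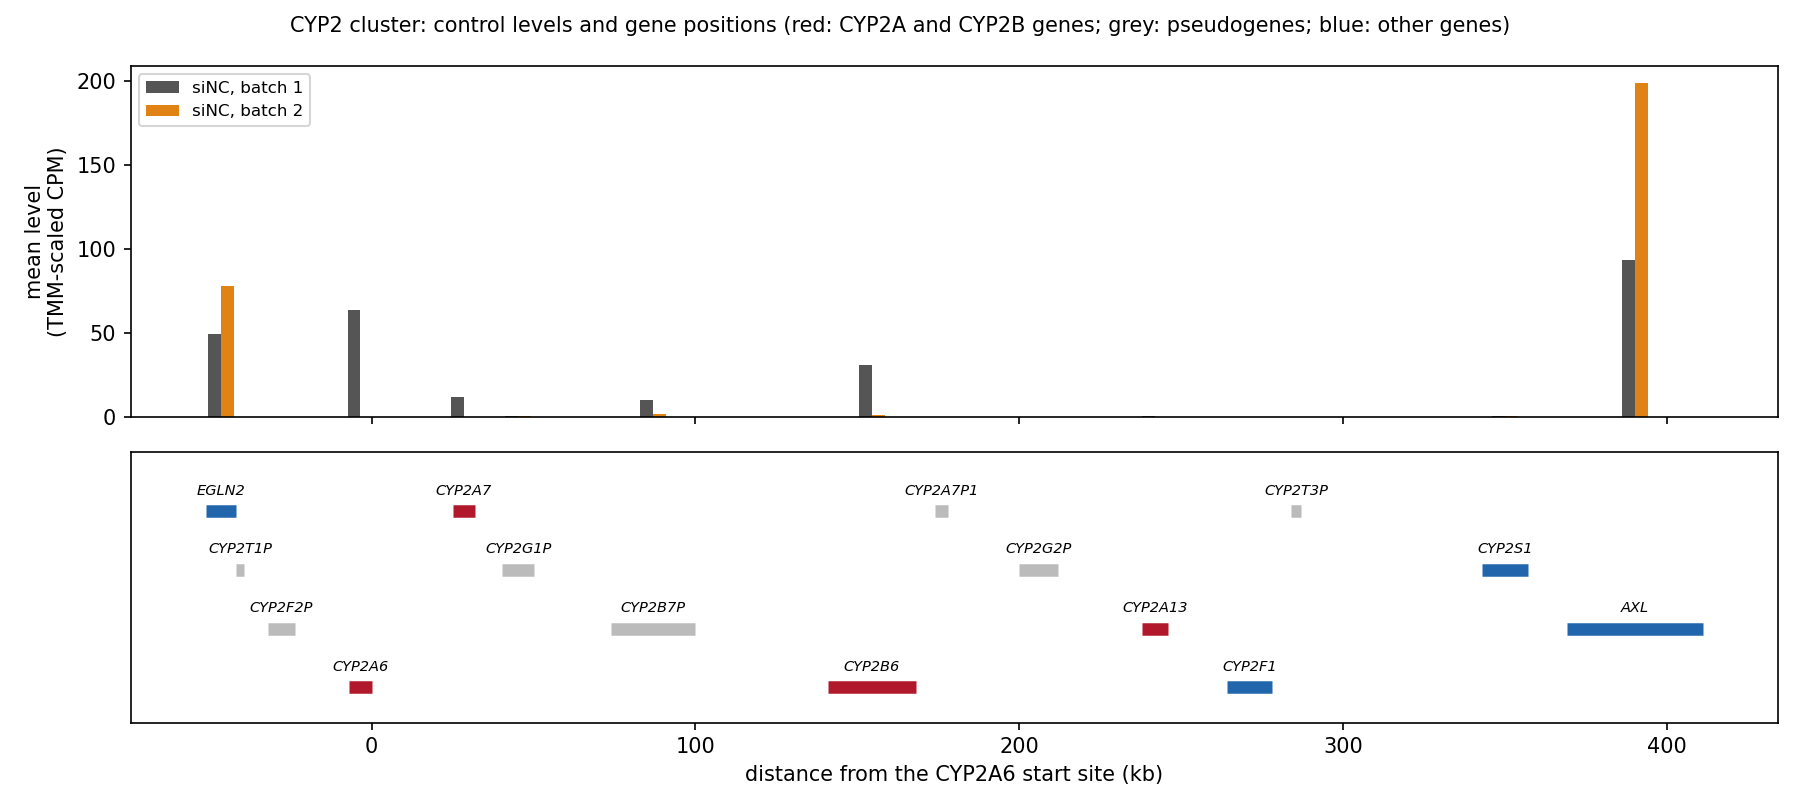
The lower panel maps the genes of the cluster by distance in kb from the CYP2A6 start site (red, the 4 genes; grey, pseudogenes; blue, others), and the upper panel gives each gene's mean level in CPM in the siNC libraries of batch 1 (grey, n = 3) and batch 2 (orange, n = 3). CYP2A6, CYP2A7, CYP2B7P and CYP2B6 are at 10.4 to 63.8 CPM in batch 1 and at 1.81 CPM or less in batch 2, whereas the outer genes EGLN2 and AXL are present in both. CYP2G1P (0.479 CPM in batch 1 and 0.83 in batch 2) and CYP2S1 (0.829 and 0.744) are low in both.

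The far end of CYP2A13 lies 246 kb from the CYP2A6 start site (GRCh38.p14, RefSeq). CYP2A6 (ENSG00000255974.8) lies at chromosome 19, 40843541 to 40850447, and CYP2A7 (ENSG00000198077.11) at 40875439 to 40882231, both on the minus strand. CYP2B6 (ENSG00000197408.10) lies at 40991282 to 41018398 and CYP2A13 (ENSG00000197838.5) at 41088451 to 41096195, both on the plus strand. CYP2B7P (ENSG00000291083.2) lies between CYP2A7 and CYP2B6, at 40924265 to 40950660.

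The transcripts themselves are close copies, which bears on how reads were divided between them. The CYP2A6 transcript was identical to that of CYP2A7 at 95.6% of aligned bases and to that of CYP2A13 at 94.2%, and CYP2B6 was identical to CYP2B7P at 95.9% (GENCODE 29). Of all 31-base stretches of CYP2A6, 45.6% also occur in CYP2A7 and 29.4% in CYP2A13, while none occurs in CYP2B6. In all 9 batch 1 libraries the deposited counts of the 4 genes and CYP2B7P were not whole numbers. The split among CYP2A6, CYP2A7 and CYP2A13, and between CYP2B6 and CYP2B7P, is uncertain for genes this alike. Sums over near-identical genes are given beside several of the single-gene values.

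In the batch 1 controls the levels per length were ordered CYP2A6, CYP2B6, CYP2A7 and CYP2A13. CYP2A6 stood at 36.2 ± 5.05 CPM per kb of transcript (SD, n = 3) and CYP2B6 at 10.1 ± 1.08. CYP2A7 stood at 5.17 ± 0.773 and CYP2A13 at 0.361 ± 0.0811 CPM per kb. The libraries of each gene lay wholly above those of the next in this order. With the ADARB1 siRNA the order was unchanged, with CYP2A6 at 21.9 ± 0.885 and CYP2B6 at 9.95 ± 0.34 CPM per kb.

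In the batch 2 controls CYP2B6 was the highest of the 4 genes, at 0.351 ± 0.133 CPM per kb, and the CYP2A genes were at the edge of detection. CYP2A6 had 1, 0 and 3 counts in those 3 libraries, CYP2A7 had 1, 1 and 0 and CYP2A13 had 0, 1 and 0. Batch cannot be told apart from any other difference between the controls, so no test was made between batches. As RNA came from whole wells, fewer cells of a type and less RNA per cell cannot be told apart.

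The ADARB1 siRNA lowered CYP2A6 and CYP2A7, while CYP2B6, in the same cluster, lay within the range of the controls. CYP2A6 was at 66.6, 71.0 and 53.8 CPM in the 3 siNC libraries and at 38.5, 37.1 and 40.2 CPM with the ADARB1 siRNA. All 3 ADARB1 siRNA libraries were below every control. CYP2A6 fell by 0.72 ± 0.12 (SE) on the log2 scale, with an adjusted p of 0.000741. Every adjusted p here is from the quasi-likelihood test of edgeR, with Benjamini-Hochberg adjustment over all tested genes, unless another test is named.

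CYP2A7, the neighbour with no known activity, was at 13, 12.6 and 9.78 CPM with siNC and at 6.24, 7.52 and 5.53 CPM with the ADARB1 siRNA. Again the 2 groups did not overlap, as was so for 30.7% of all tested genes in this comparison. CYP2A7 fell by 0.87 ± 0.16 on the log2 scale (adjusted p = 0.00518). CYP2A6 and CYP2A7 were called lower in each of 15 alternative settings, those without each library included. These settings also include the sum of the CYP2A genes, which is the same row for both genes and holds mostly CYP2A6 counts. That setting does not bear on CYP2A7 apart from CYP2A6.

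CYP2A13 was at 0.700, 0.716 and 0.464 CPM with siNC, from 37, 29 and 32 counts, and at 0.134, 0.471 and 0.179 CPM with the ADARB1 siRNA, from 8, 26 and 7 counts. The second ADARB1 siRNA library overlapped the controls. The log2 difference was -1.23 ± 0.51 and did not pass (adjusted p = 0.242). It ranged from -1.99, without the second ADARB1 siRNA library, to -0.90, without the first. Summed into 1 row with the other CYP2A genes, the difference was -0.75 ± 0.10 (adjusted p = 0.000161), a value set almost wholly by CYP2A6 and CYP2A7.

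CYP2B6, the bupropion hydroxylase, was at 32.9, 33.4 and 27.4 CPM with siNC and at 32.1, 30.6 and 30.0 CPM with the ADARB1 siRNA. The ADARB1 siRNA libraries lay inside the range of the controls. The log2 difference was -0.01 ± 0.09 (adjusted p = 0.981), with an approximate 95% interval from -0.22 to 0.19. CYP2B7P had a log2 difference of -0.26 ± 0.15 (adjusted p = 0.443).

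With the ADARB1 siRNA CYP2A6 and CYP2A7, 2 of the 4 genes, were thus called lower and none higher. Their calls may not be separate, as the split of reads between them is uncertain. In these libraries, against siNC, 2.51% of all tested genes were called lower and 4.61% in either direction. The same libraries had 20 hepatocyte markers summing to 81159 to 85166 CPM, against 89462 to 96165 CPM with siNC, and 6 of the 20 were called lower, among them G6PC1 (-0.61 ± 0.11) and CPS1 (-0.60 ± 0.11). The part of that shift in the CYP2A result was not tested. Biliary and progenitor markers summed to 725 to 738 CPM against 661 to 720 CPM.

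**Figure D2:**
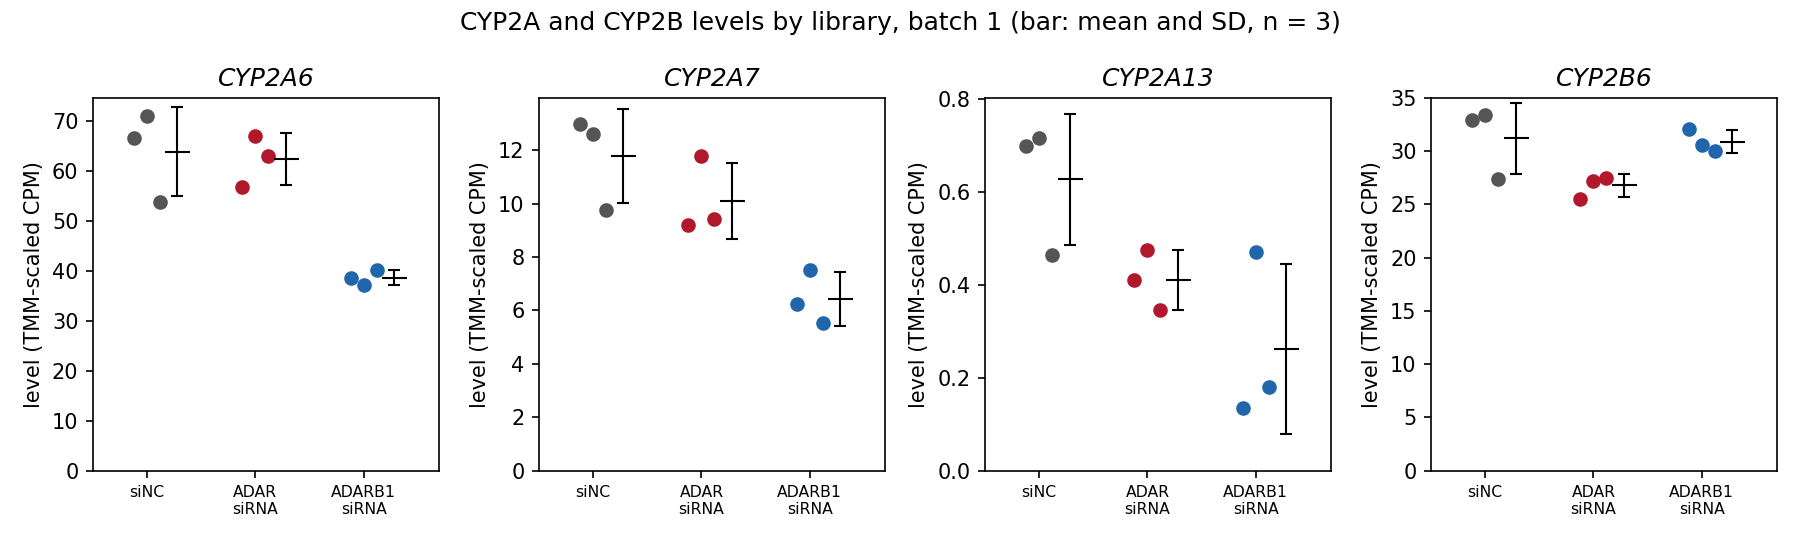
Each panel gives 1 gene's level in TMM-scaled CPM on an axis from 0, with 1 point per library of batch 1 and the mean and SD (n = 3) drawn beside them. CYP2A6 and CYP2A7 with the ADARB1 siRNA lie below all siNC and all ADAR siRNA libraries, and CYP2B6 lies between 25.5 and 33.4 CPM in all 9 libraries.

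The ADAR siRNA left all 4 genes below the threshold for a call, against 21.8% of tested genes called in either direction. CYP2A6 was at 56.8, 67.0 and 63.0 CPM, within the range of the controls, with a log2 difference of -0.03 ± 0.11 (adjusted p = 0.888) and an approximate 95% interval from -0.28 to 0.22. CYP2A7 was at 9.19, 11.8 and 9.44 CPM, with a log2 difference of -0.22 ± 0.16 (adjusted p = 0.385). CYP2A13 was at 0.410, 0.475 and 0.346 CPM, with a log2 difference of -0.60 ± 0.50 (adjusted p = 0.454). Summed into 1 row, the CYP2A genes differed by -0.06 ± 0.10 (adjusted p = 0.724). For each CYP2A gene at least 1 ADAR siRNA library lay within the range of the controls.

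CYP2B6 was at 25.5, 27.2 and 27.5 CPM with the ADAR siRNA against 27.4 to 33.4 CPM with siNC. The groups met only at the highest ADAR siRNA library and the third control, which was also the lowest control for CYP2A6 and CYP2A7. The log2 difference was -0.22 ± 0.09 and did not pass in the shared fit (adjusted p = 0.105). It passed in 4 of 15 other settings: without the third siNC library it was -0.31 ± 0.10 (adjusted p = 0.0369), and in a fit of batch 1 alone -0.21 ± 0.07 (adjusted p = 0.0272).

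In the same libraries NR1I3 and HNF4A fell and CYP3A4 rose. NR1I3, which codes for CAR, was at 8.84, 8.42 and 6.73 CPM with siNC and at 3.37, 3.32 and 2.34 CPM with the ADAR siRNA, a fall of 1.41 ± 0.20 on the log2 scale (adjusted p = 4.61e-05). HNF4A fell by 0.68 ± 0.08 (adjusted p = 7.03e-06). NR1I2, which codes for PXR, had a log2 difference of -0.32 ± 0.12 (adjusted p = 0.0575), which passed in 6 of 8 other settings. CYP3A4, the enzyme classed with CYP2B6 as a target of both receptors, rose by 2.24 ± 0.11 (adjusted p = 1.5e-10). Hepatocyte markers summed to 68023 to 73023 CPM with the ADAR siRNA, below the controls, and biliary and progenitor markers to 1215 to 1248 CPM, above them; the part of these shifts in the CYP2B6 value was not tested.

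Against the ADARB1 siRNA, the ADAR siRNA libraries were higher in CYP2A6 and CYP2A7, so 2 of the 4 genes were called higher. These calls may not be separate, as the split of reads between the 2 genes is uncertain. Of all genes, 19.5% were called in either direction and 9.9% higher. CYP2A6 was higher by 0.69 ± 0.12 on the log2 scale (adjusted p = 0.000251) and its groups did not overlap, as for 45.1% of all genes. CYP2A7 was higher by 0.65 ± 0.16 (adjusted p = 0.01), but this call rested on single libraries: it was 0.53 ± 0.17 (adjusted p = 0.0593) without the second ADAR siRNA library and 0.56 ± 0.18 (adjusted p = 0.0546) without the third ADARB1 siRNA library. CYP2A13 differed by 0.63 ± 0.52 (adjusted p = 0.468), from 0.30 without the first ADARB1 siRNA library to 1.39 without the second. The summed CYP2A row was higher by 0.69 ± 0.10 (adjusted p = 8.19e-05).

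CYP2B6 had a log2 difference of -0.21 ± 0.09 between the ADAR and the ADARB1 siRNA (adjusted p = 0.138), the opposite sign to CYP2A6. It passed in a fit of batch 1 alone (-0.19 ± 0.07, adjusted p = 0.0387) and in a fit of those 2 groups alone (-0.20 ± 0.05, adjusted p = 0.00551). This comparison and those against siNC share libraries, so their values are not independent of each other.

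Within each library, the ratio of the CYP2A6 to the CYP2B6 level does not depend on the scaling between libraries; it was added after the data had been seen. It was 2.02, 2.12 and 1.97 with siNC, 2.23, 2.46 and 2.29 with the ADAR siRNA and 1.20, 1.21 and 1.34 with the ADARB1 siRNA. No pair of groups overlapped. Each comparison gave an exact two-sided permutation p of 0.10, the smallest that 3 against 3 libraries can give, or 0.22 after Benjamini-Hochberg adjustment over the 13 ratios and shares tested.

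For the share of CYP2A counts that lay on CYP2A7 no call was possible, as 3 against 3 libraries give no permutation p below 0.10. The ADAR siRNA libraries lay below all controls, but narrowly, with the closest 2 libraries at 14.8% and 15% from the counts before rounding. It was 15.5 ± 0.661% with siNC, 13.9 ± 0.947% with the ADAR siRNA and 14.2 ± 2.33% with the ADARB1 siRNA (SD, n = 3). Exact two-sided permutation p-values were 0.10 for the ADAR siRNA and 0.50 for the ADARB1 siRNA against siNC, and 0.22 and 0.65 after adjustment. Exact 95% binomial intervals, which cover counting error only, were 12.6 to 15.3%, 15.2 to 18.2% and 10.6 to 13.7% for the 3 ADARB1 siRNA libraries, so those libraries differed among themselves by more than counting error.

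In batch 2, IFNa lowered CYP2B6 and BX795 raised it, while the CYP2A genes gave too few counts for a fold. CYP2B6 was at 1.11, 1.49 and 0.667 CPM in the siNC libraries, from 28, 24 and 9 counts, and at 0.282 and 0.255 CPM with IFNa, from 11 and 7 counts. Both IFNa libraries were below every control; groups did not overlap for 47.3% of all genes. CYP2B6 fell by 2.02 ± 0.30 on the log2 scale (adjusted p = 0.000103), and it was called lower in each of 14 alternative settings. Of the 4 genes only CYP2B6 had enough counts for a fold here. Of all tested genes, 15.9% were called lower and 34.3% in either direction. Without the first IFNa library 2494 genes were called over the whole table, instead of 7932.

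CYP2B7P was at 1.74, 1.55 and 2.15 CPM with siNC and at 1.10 and 0.948 CPM with IFNa, and it fell by 0.80 ± 0.25 (adjusted p = 0.0196); this call was lost in a fit of batch 2 alone. As more of the pair's counts lay on CYP2B7P than on CYP2B6 in these groups, the summed row of both genes fell by less, 1.15 on the log2 scale. The level of CYP2B7P over that of CYP2B6 was 1.57, 1.04 and 3.22 in the controls and 3.91 and 3.71 with IFNa, an exact permutation p of 0.20, the smallest that 2 against 3 libraries can give. In batch 2 the deposited CYP2B6 counts were whole in all 10 libraries, within 0.005, and those of CYP2B7P in all but 1.

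NR1I3 was near 0 in batch 2, at 0.277, 0.249 and 0.148 CPM in the controls and 0.0257 and 0.0364 CPM with IFNa, where 2 counts in all allow no fold. Interferon stimulated genes summed over 20 genes to 6993 and 7882 CPM with IFNa, against 319 to 358 CPM in the controls. Hepatocyte markers summed to 14579 and 15133 CPM against 15584 to 18966 CPM, and 11 of 20 were called lower and 1, TDO2 (tryptophan dioxygenase), higher by 1.11 ± 0.12. Of all tested genes, 15.9% were called lower with IFNa and 34.3% in either direction. The GC trend of a library is the mean log2 level, centred on the batch, of genes above 60% GC minus that of genes below 40%. It was 0.26 to 1.02 in the controls and -0.36 to 0.09 with IFNa. With the trend over GC removed, CYP2B6 was lower at -1.96 ± 0.31 (adjusted p = 0.000147). The part of the marker shift in the CYP2B6 result was not tested. CYP3A4 went the other way from CYP2B6 with IFNa, with a rise of 0.73 ± 0.25 (adjusted p = 0.0287), which was lost in a fit of batch 2 alone and when the GC trend of each library was removed.

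With BX795, CYP2B6 was at 4.28, 4.28 and 4.34 CPM, from 100, 127 and 142 counts. These 3 libraries lay close together and above every control; groups did not overlap for 49.5% of all genes. CYP2B6 rose by 1.95 ± 0.17 on the log2 scale (adjusted p = 1.3e-07), and it was called higher in each of 15 alternative settings. Of the 4 genes it alone had enough counts for a fold. Of all tested genes, 23.4% were called higher and 47.1% in either direction.

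CYP2B7P did not pass with BX795, at 1.93, 2.02 and 2.20 CPM and a log2 difference of 0.20 ± 0.21 (adjusted p = 0.474). The summed row of CYP2B6 and CYP2B7P therefore rose by less, by 1.13 ± 0.13. The level of CYP2B7P over that of CYP2B6 was 0.450, 0.472 and 0.507 with BX795, all below the controls (exact two-sided permutation p = 0.10, 0.22 after adjustment). CYP3A4 rose by 5.52 ± 0.17 (adjusted p = 6.37e-13), from 1.62, 1.74 and 1.26 CPM to 65.2, 81.2 and 69.3 CPM.

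The receptors and HNF4A did not rise with BX795. NR1I2 fell by 1.09 ± 0.16 (adjusted p = 4.08e-05), HNF4A had a log2 difference of -0.22 ± 0.09 that lost its call in 6 of 8 other settings and changed sign in 2 of them, and NR1I3 was at 0.0856, 0.101 and 0.153 CPM. The GC trend of the libraries differed between these groups, at 0.26 to 1.02 in the controls and -0.64 to -0.22 with BX795. With that trend removed CYP2B6 was higher by 2.05. The share of mitochondrial counts was 1.62 to 3.20% in the controls and 4.52 to 4.77% with BX795, and its part in the result was not tested.

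Hepatocyte markers summed to 16948 to 17925 CPM with BX795, inside the range of the controls (15584 to 18966 CPM), but 11 of the 20 were called lower and 3 higher. Of all tested genes, 47.1% were called in either direction with BX795 and 23.4% higher. Biliary and progenitor markers summed to 315 to 326 CPM against 407 to 453 CPM in the controls. Mesenchymal markers summed to 272 to 277 CPM against 415 to 433 CPM, so neither of these sums overlapped the controls. Single biliary and progenitor markers went both ways, with 3 of 8 tested called higher and 4 lower (median log2 difference 0.02). Among the lower was KRT19, at a mean of 66 CPM against 201 CPM with siNC. Of 11 mesenchymal markers tested, 2 were called higher and 5 lower. The part of these shifts in the CYP2B6 result was not tested.

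**Figure D3:**
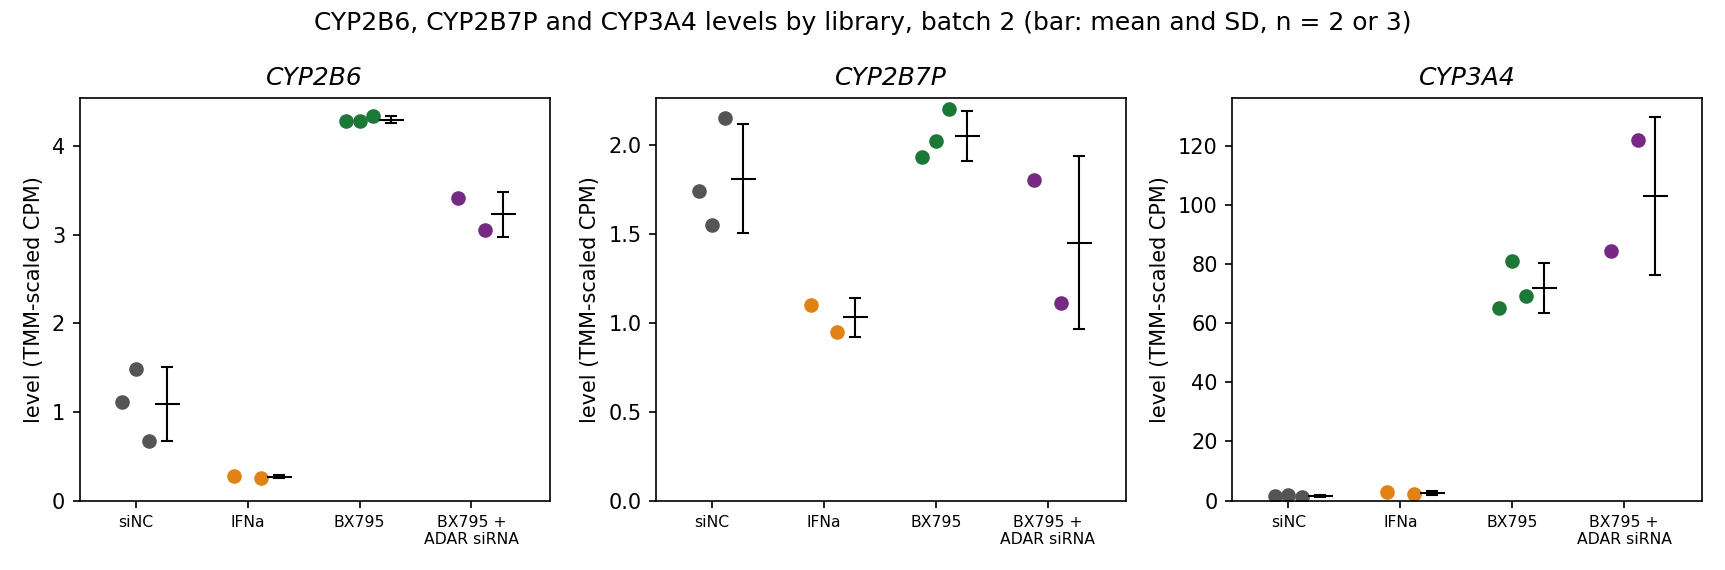
Each panel gives 1 gene's level in TMM-scaled CPM on its own axis from 0, with 1 point per library of batch 2 and the mean and SD (n = 3 for siNC and BX795, n = 2 for IFNa and for BX795 with the ADAR siRNA). CYP2B6 is between 0.667 and 1.49 CPM with siNC, below that with IFNa and above 3 CPM in all libraries with BX795, and CYP3A4 is higher than the controls in all libraries with BX795 too, while CYP2B7P overlaps the controls with BX795.

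With BX795 and the ADAR siRNA together, CYP2B6 was at 3.41 and 3.05 CPM, from 95 and 110 counts, again above every control, where 50.6% of all genes had groups that did not overlap. It was higher than siNC by 1.54 ± 0.19 on the log2 scale (adjusted p = 4.67e-06), and the CYP2A genes had too few counts for a fold. Of all tested genes, 21.4% were called higher and 40.3% in either direction. Summed with CYP2B7P the rise was 0.73 ± 0.14. CYP3A4 was higher by 6.05 ± 0.18 (adjusted p = 2.07e-13) and NR1I2 lower by 2.06 ± 0.20 (adjusted p = 3.98e-07). In these libraries the hepatocyte markers summed to 10447 to 13092 CPM, below all controls, and 15 of the 20 were called lower than siNC and 1 higher. Biliary and progenitor markers summed to 381 to 393 CPM and mesenchymal markers to 249 to 256 CPM, also below all controls. The biliary and progenitor sum does not describe its list, as 4 of the 8 tested were called higher and 3 lower (median log2 difference 0.47). Of 11 mesenchymal markers tested, 2 were called higher and 6 lower. The part of these shifts in the CYP2B6 result was not tested.

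Against BX795 alone, adding the ADAR siRNA did not take CYP2B6 past the threshold, and the CYP2A genes had too few counts for a fold. Of all genes, 9.52% were called. Both CYP2B6 values with the ADAR siRNA were below all 3 with BX795 alone, where 34.8% of all genes had groups that did not overlap. The log2 difference was -0.42 ± 0.14 (adjusted p = 0.073). It passed in 4 of 14 other settings, with DESeq2 size factors (-0.45 ± 0.14, adjusted p = 0.0499), DESeq2's Wald test (-0.46 ± 0.16, adjusted p = 0.0315), the GC trend removed (-0.44 ± 0.14, adjusted p = 0.0362) or the sum with CYP2B7P (-0.40 ± 0.12, adjusted p = 0.0392), and in a fit of batch 2 alone its adjusted p was 0.39. Hepatocyte markers were lower too, with 10 of the 20 called lower and none higher than with BX795 alone, and their part in the CYP2B6 value was not tested.

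The ADAR siRNA response of CYP2B6 with BX795, minus that without BX795, was -0.20 ± 0.17 on the log2 scale (adjusted p = 0.694), with an approximate 95% interval from -0.57 to 0.17. Without single libraries it ranged from -0.32, without the first library with BX795 and the ADAR siRNA, to -0.11, without the third siNC library of batch 1. For this difference, which crosses the batches, 3.42% of genes were called. CYP2B6 was not called, and the CYP2A genes had too few counts for a fold. For CYP3A4 the same difference was -1.71 ± 0.17 (adjusted p = 1.04e-05). The mean CYP3A4 level was 225 CPM in the siNC libraries of batch 1 and 1.54 CPM in those of batch 2. For either gene, BX795 and batch cannot be told apart in this difference. The interval for CYP2B6 does not show that the responses were alike.

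The CYP2A genes of batch 2 can only be given as counts. CYP2A6 had 1 and 2 counts with IFNa, 4, 6 and 2 with BX795 and 3 and 1 with BX795 and the ADAR siRNA. Summed and set against the 4 counts of the controls, the ratio of rates was 0.620 with IFNa (exact 95% interval 0.0908 to 3.66) and 1.92 with BX795 (0.582 to 8.17). Both intervals, which cover counting error only, include no change.

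CYP2A7 and CYP2A13 had 0 counts in all 7 treated libraries of batch 2. A floor of 3 counts over a group allows up to 0.0452 CPM with IFNa, 0.0350 CPM with BX795 and 0.0470 CPM with BX795 and the ADAR siRNA. The controls, with 2 counts of CYP2A7 and 1 of CYP2A13 in all, were no higher than their own floor. No CYP2A gene passed in any batch 2 comparison, where the lowest adjusted p was 0.0978.

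**Figure D4:**
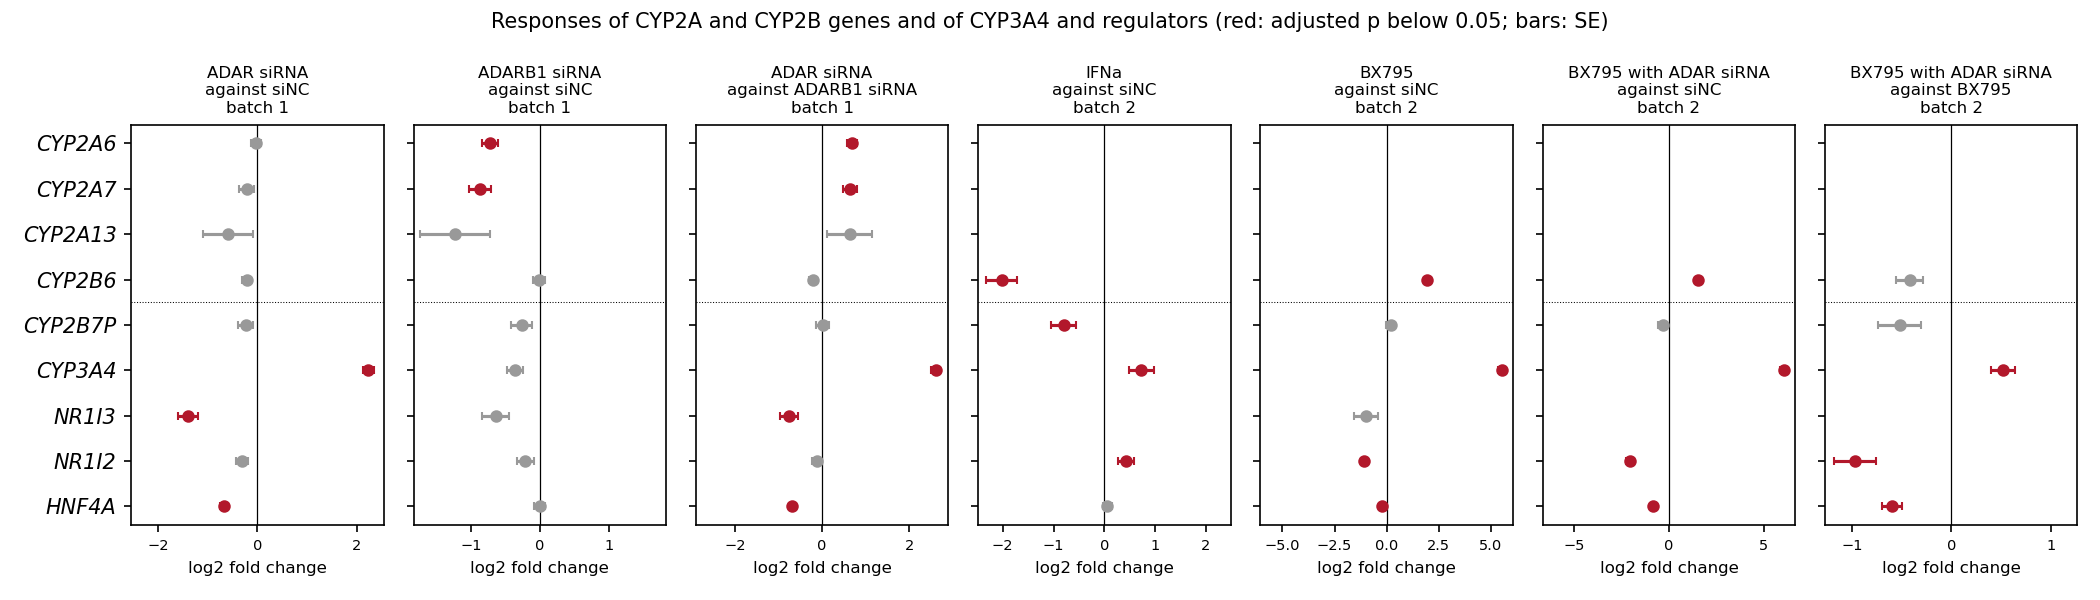
Log2 fold changes with their SE from the shared edgeR fit, 1 panel per comparison with its own horizontal scale, for the 4 genes (above the dotted line) and for CYP2B7P, CYP3A4, NR1I3, NR1I2 and HNF4A below it; red marks an adjusted p below 0.05 and genes with fewer than 10 counts in a group have no point. CYP2A6 and CYP2A7 are red in the ADARB1 siRNA panels of batch 1 only, and CYP2B6 is red in the 3 comparisons with siNC of batch 2.

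Genes around the cluster give a view of the region. Of the 10 flanking genes tested, 2 rose with the ADAR siRNA in batch 1, AXL (a receptor tyrosine kinase) by 0.27 ± 0.07 and TGFB1 (a growth factor of tissue repair) by 0.37 ± 0.10, and none changed with the ADARB1 siRNA. In batch 2, 5 of 10 fell with IFNa and 8 of 10 with BX795, where AXL fell by 0.87 ± 0.07 and TGFB1 by 0.93 ± 0.10. Of all tested genes, 21.8% were called in either direction with the ADAR siRNA, 4.61% with the ADARB1 siRNA, 34.3% with IFNa and 47.1% with BX795. CYP2B6 with BX795 thus moved opposite to AXL and TGFB1, which lie on the same chromosome arm. Of 11 other CYP2 genes and pseudogenes of the cluster only CYP2B7P, CYP2G1P and CYP2S1 passed the filter, and CYP2G1P fell with the ADAR siRNA by 1.28 ± 0.43 (adjusted p = 0.0409) at a level of 0.479 CPM in the controls. That call was lost in 2 of 8 other settings, both with the replicate block, and without any of 5 of the 6 libraries left out in turn.

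Among 26 regulators of hepatic CYP genes, the ADAR siRNA lowered 12 and raised 1, with a median log2 difference of -0.32 against -0.02 over all genes, of which 21.8% were called. HLF, a circadian PAR-bZIP factor, fell by 1.13 ± 0.10 and ONECUT1, a hepatic homeobox factor, by 0.80 ± 0.09. With the ADARB1 siRNA 3 of 26 fell, HLF by 0.98 ± 0.10, NR0B2 by 0.90 ± 0.21 and NR2F1 by 0.32 ± 0.08, and none rose, where 4.61% of all genes were called. NR1I3 had a log2 difference of -0.64 ± 0.20 there (adjusted p = 0.0735), with a call in 5 of 8 other settings. Its groups did not overlap, as for 30.7% of all genes. HNF4A had a log2 difference of 0.00 ± 0.08, whose sign changed among the settings.

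With IFNa 8 of the 26 regulators rose and 7 fell, and with BX795 7 rose and 12 fell, against 34.3% and 47.1% of all genes called in either direction. PPARGC1A, a coactivator of HNF4A, rose by 0.97 ± 0.13 with IFNa, and CEBPD fell by 1.12 ± 0.21. With BX795 the glucocorticoid receptor NR3C1 rose by 0.81 ± 0.07 and CEBPA, a liver-enriched factor, fell by 1.79 ± 0.20. With BX795 and the ADAR siRNA 3 rose and 15 fell against siNC, where 40.3% of all genes were called.

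Of 20 tested CAR and PXR targets, a list that holds CYP3A4, 3 rose and 8 fell with the ADAR siRNA, and none rose and 6 fell with the ADARB1 siRNA, against 21.8% and 4.61% of all genes called. GSTA1, a glutathione transferase, fell by 0.98 ± 0.06 and 0.60 ± 0.06 in these comparisons, which share their controls. With BX795 7 rose and 7 fell, among them UGT1A1, the bilirubin glucuronosyltransferase, which rose by 0.82 ± 0.09, and SULT2A1, a steroid sulfotransferase, which fell by 1.47 ± 0.09. With IFNa 4 rose and 7 fell, and ABCC3, an efflux pump, fell by 0.41 ± 0.07. Over all genes the shares called were 47.1% with BX795 and 34.3% with IFNa.

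Of 26 other CYP1 to CYP4 enzymes tested, none rose and 8 fell with the ADARB1 siRNA, among them CYP2E1, the ethanol-oxidising enzyme, by 0.69 ± 0.08 and CYP3A5 by 0.51 ± 0.08. Their median log2 difference was -0.28, against -0.00 over all genes, of which 4.61% were called. With the ADAR siRNA 5 rose and 11 fell, with IFNa 11 rose and 6 fell and with BX795 12 rose and 8 fell, against 21.8%, 34.3% and 47.1% of all genes called in either direction. CYP1B1 fell by 1.39 ± 0.07 and CYP1A1, another dioxin-responsive enzyme, rose by 2.61 ± 0.27 with BX795.

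Enzymes that share the substrates of CYP2A6 and CYP2B6 were followed as 11 genes. Aldehyde oxidase, AOX1, which completes the path from nicotine to cotinine, fell by 0.35 ± 0.08 with the ADAR siRNA and rose by 0.92 ± 0.08 with BX795. UGT2B10, which glucuronidates nicotine and cotinine, fell by 0.87 ± 0.17 with the ADARB1 siRNA. HSD11B1, a carbonyl reductase of bupropion, fell by 1.25 ± 0.14 with the ADAR siRNA and rose by 1.51 ± 0.16 with BX795. In all, 5 of the 11 fell with the ADAR siRNA and 4 with the ADARB1 siRNA, and none rose with either, against 21.8% and 4.61% of all genes called.

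Electron donors and heme enzymes, on which P450 enzymes depend, were followed as 18 genes. Of these, 2 rose and 5 fell with the ADAR siRNA and 2 fell with the ADARB1 siRNA, the latter CYB5A, the cytochrome b5 that passes electrons to P450s (-0.26 ± 0.06), and ALAD, a heme synthesis enzyme (-0.26 ± 0.07). With BX795 4 rose and 10 fell. The shares of all genes called in these 3 comparisons were 21.8%, 4.61% and 47.1%. POR, the reductase that serves microsomal P450s, fell by 0.48 ± 0.10 with BX795 and the ADAR siRNA.

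The genes whose profile over the libraries was closest to each of the 4 genes were ranked by the root mean square difference of centred log2 values, as a description. Over the 9 libraries of batch 1, CYP2A6 was closest to DEPP1 (0.09), LINC02732 (0.10), ALPK3 (0.11), SNX11 and SPAG5 (0.13 each), against a median of 0.38 over 14159 genes. CYP2A7 was closest to LINC00870 (0.15), ZNF25, UGT2B10 (0.16 each), CILK1 and CYP2A6 (0.17 each), against a median of 0.44. CYP2B6 was closest to FUOM (0.03), ZMAT5, PIM1, SHPRH (0.04 each) and ZNF618 (0.05), against a median of 0.19.

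Over the 10 libraries of batch 2, CYP2B6 was closest to LINC00689 (0.47), NR4A1 (0.56), TESC (0.64), RND1 and CXCL1 (0.68 each), against a median of 1.46 over 14059 genes. The nearest genes were farther from CYP2B6 in batch 2 than in batch 1, but so was the median gene (1.46 against 0.19). The distances of the 2 batches are therefore not directly comparable. CYP2A13 in both batches, and CYP2A6 and CYP2A7 in batch 2, were below a mean of 1 CPM and were not ranked.

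Over all 7 groups the level of CYP2B6 was ordered siNC of batch 1 (31.2 ± 3.35 CPM), ADARB1 siRNA (30.9 ± 1.05), ADAR siRNA (26.8 ± 1.09), BX795 (4.30 ± 0.0366), BX795 with the ADAR siRNA (3.23 ± 0.254), siNC of batch 2 (1.09 ± 0.413) and IFNa (0.269 ± 0.0192). Neighbours within batch 1 did not differ past the threshold, nor did BX795 with and without the ADAR siRNA. The step from BX795 and the ADAR siRNA to the batch 2 controls and that from those to IFNa did.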

How the data were processed

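RNA was measured in 19 libraries. Per the submitters' processing notes, the authors used STAR and Salmon with GRCh38.p14, and they deposited expected counts per gene, with no scaling between libraries. No tool version, setting or annotation release is given in the sources. Of the deposited counts, 94.82% were within 0.005 of a whole number. They were rounded, which moved no value by more than 0.5.

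Counts were tested in edgeR 4.0.16 (R 4.3.3) by the quasi-likelihood test, with TMM scaling, filterByExpr and 1 mean per group over all libraries (12 residual degrees of freedom). Benjamini-Hochberg adjustment covered 23121 genes, with calls at an adjusted p below 0.05. Approximate 95% intervals are two-sided, from the SE of the log2 difference and Student's distribution with those residual degrees of freedom. No fold is given where a group held fewer than 10 counts. The model was tried on simulated counts, with changes placed only in well-counted genes of the ADAR siRNA libraries of batch 1. The simulation does not bear on groups of 2 libraries or on low counts.

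The 4 genes and all lists were chosen with earlier results of these data known. Named genes are the 4 genes, ADAR, ADARB1, NR1I3, NR1I2, HNF4A, CYP3A4, up to 3 called genes with the smallest p per list and comparison, tested cluster and flanking genes, and the 5 nearest profiles (log2 CPM with a prior count of 2, genes with a mean of at least 1 CPM). Some other list members are named for their role and were chosen after their values were seen. Alternatives were DESeq2 1.42.0 size factors and test, no filter, fits of 1 batch or 2 groups, a replicate block, removal of a GC trend (GENCODE 29), summed near-identical genes and leaving out each library. Replicate libraries differed by more than sampling noise (chi-square per gene of 5.43 or more), so none was counted as a repeat of another.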

Additional observations from a re-analysis of the deposited data

How the results depend on the processing

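Of 255 alternative values for the 17 results on the 4 genes, 236 kept their direction and their side of the threshold, 12 passed only in the alternative, 2 lost their call and 5 changed sign. The causes were not tested. CYP2B6 after the ADAR siRNA passed with batch 1 alone (-0.21), with the 2 groups alone (-0.21) and with the GC trend removed (-0.23). Without single libraries it ranged from -0.31 to -0.17 and passed without the third siNC library. CYP2B6 in the ADAR against the ADARB1 siRNA passed with batch 1 alone (-0.19) and with the 2 groups alone (-0.20). In BX795 with the ADAR siRNA against BX795, CYP2B6 passed with DESeq2 size factors (-0.45), the DESeq2 test (-0.46), the GC trend removed (-0.44) and the sum with CYP2B7P (-0.40). CYP2A13 is called only as part of the summed CYP2A row, by its construction, at -0.75 for the ADARB1 siRNA against siNC and 0.69 for the ADAR against the ADARB1 siRNA. Without single libraries, CYP2A7 in the ADAR against the ADARB1 siRNA ranged from 0.53 to 0.78. Differences near 0 changed sign: CYP2A6 after the ADAR siRNA ranged from -0.14 to 0.05 and CYP2B6 after the ADARB1 siRNA from -0.10 to 0.04.

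The replicate numbers did not pair the libraries: the correlation of deviations was over 0.1 in 1 of 9 same-numbered pairs of batch 1 (-0.08 to 0.11) and in 3 of 13 of batch 2 (-0.22 to 0.21). With a replicate block no call on the 4 genes changed, with CYP2A6 at -0.72 after the ADARB1 siRNA and CYP2B6 at -2.06 with IFNa and 1.97 with BX795; over all genes the block called 686 instead of 1066 genes after the ADARB1 siRNA, 1414 instead of 2201 for BX795 with the ADAR siRNA against BX795 and 459 instead of 790 for the difference of responses.

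Counts over all genes ranged from 3708 to 8223 (5042 in the shared fit) for the ADAR siRNA, 603 to 3632 (1066) for the ADARB1 siRNA, 3279 to 7774 (4518) for one against the other, 2114 to 9623 (7932) for IFNa, 4468 to 10438 (9310) for BX795 with the ADAR siRNA, 758 to 3206 (2201) for that against BX795 and 384 to 1279 (790) for the difference of responses. For BX795 they ranged from 7951 to 11628 (10885). Each library left out of the ADARB1 siRNA comparison took its count to between 603 and 708. Counts of called list members moved by over 1.5 times in 267 of 2464 alternative values. The sums with CYP2B7P took CYP2B6 to -1.15 with IFNa, 1.13 with BX795 and 0.73 with BX795 and the ADAR siRNA. Few counts limit the batch 2 results: the CYP2A genes had too few counts for a fold in every setting, and CYP2B6 rested on 18 counts with IFNa. Where a left-out library leaves 1 in its group, that library is assumed to vary like the other groups.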
